A study of Rattus norvegicus with 8 samples.

Results

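The genes described here build ribosomes or form the RNA polymerases of the cell nucleus. They were chosen by name from the genes that the authors' 5 deposited tables list: protein-coding genes whose symbols start with Utp, Nop, Nol, Rrp, Polr1, Polr2 or Polr3, together with Ncl, Npm1, Fbl, Dkc1, Bop1, Pes1, Gnl3, Nip7 and Emg1. The rule found 42 of the 9025 genes listed in any table. A table lists a gene only where its unadjusted p-value is under 0.05 in that comparison, so every member had already passed that limit at least once, and genes that did not differ are missing by construction. RefSeq's rat annotation (GRCr8) holds 82 protein-coding genes with names that the rule takes. Of these, 41 were members by their symbol and Utp11, listed as Utp11l, was the other member. A further 7 were listed under older symbols that the rule does not take, and 33 were in no table. Fbl, the methyltransferase of nucleolar box C/D particles, and Polr1a and Polr3a, the largest subunits of RNA polymerases I and III, were among the 33.

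Ribosomes are made in the nucleolus, where RNA polymerase I copies the ribosomal RNA genes into one long precursor. Small nucleolar ribonucleoprotein particles (snoRNPs) modify this precursor, the small subunit processome folds and cuts its first part, and a separate set of factors assembles the large subunit around the rest. RNA polymerase III makes the 5S ribosomal RNA and the transfer RNAs, and RNA polymerase II makes the messenger RNAs, including those of all ribosomal proteins. In heart muscle cells the capacity for ribosome production is known to rise with growth.

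RNA was sequenced from neonatal rat ventricular cardiomyocytes, prepared from the heart ventricles of Sprague Dawley rats 2 to 3 days old and treated in culture for 24 h. One pair of groups was kept in normoxia, with the solvent DMSO or with 10 µM eugenol, a phenol of clove oil. The other pair was kept in an ischemic condition with 1% oxygen, again with DMSO or with 10 µM eugenol. Each of the 4 groups has 2 libraries, of 14.7 to 17.7 megareads behind the deposited FPKM values. The cells are a primary preparation, which can hold other cells of the ventricle. Whether the 2 libraries of a group stem from different isolations is not given, so p-values measure the spread between these libraries, which may be technical. What the ischemic condition changed besides oxygen is not given, and the parts of that condition cannot be told apart.

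Levels are in RPM, reads per megaread of the library total. Comparisons between genes use FPKM, which also divides by gene length. Means are given ± SD over the 2 libraries of a group. A member was called where the authors' adjusted p-value was under 0.05, and with 2 libraries against 2 the smallest two-sided p of an exact permutation test on a single gene is 0.333. Standard errors come from an edgeR refit of the 6582 genes with counts in all 8 libraries, which include 27 members. Since a gene entered this refit through being listed, nearly all of its genes were called between oxygen levels: 98.3% with DMSO (47% higher, 51.3% lower), 98% with eugenol (47.1% higher, 50.9% lower) and 96.6% for ischemia eugenol against normoxia DMSO (46.3% higher, 50.3% lower). A call of the refit is therefore no support for a member by itself. The same holds for the refits of all genes of a deposited table used below. Each of those genes already had an unadjusted p under 0.05 in that comparison, and the share of them called is not given here. The members outside those 27 have counts in 6 libraries (5 genes) or 4 (10 genes).

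The 2 libraries of a group differed by more than counting noise in every group, with a chi-square per degree of freedom of 6.74 to 15.7. The cell type labelled was checked with markers. Of 10 cardiomyocyte markers 8 were listed, and their summed level was 42720 to 45084 RPM in normoxia DMSO and 46363 to 47724 RPM in normoxia eugenol. The sum was 24923 to 27197 RPM in ischemia DMSO and 22612 to 24432 RPM in ischemia eugenol. Markers of fibroblasts (10 of 10 listed), smooth muscle (6 of 7), endothelium (5 of 8) and macrophages (7 of 9) also had lower sums in ischemia. The sums take only markers with counts in all libraries, 8, 6, 4 and 6 of these. Single markers went both ways. With DMSO 1 cardiomyocyte marker was called higher and 7 lower, for fibroblasts 2 and 5, smooth muscle 2 and 4, endothelium 0 and 5, and macrophages 0 and 5. With eugenol the counts were 0 and 8, 2 and 7, 2 and 4, 0 and 4, and 0 and 6. Of 3 erythroid markers 1 was listed, with no value in all 8 libraries. The fibroblast sum fell outside the normoxia range in both treatments, at 10656 to 10973 RPM in ischemia DMSO against 15278 to 15522 RPM in normoxia DMSO. In RNA from whole cultures, fewer cells of a type and less RNA per cell cannot be told apart. The part of these shifts in the results below was not tested.

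With DMSO, most called ribosome biogenesis genes were higher in ischemia, while some polymerase subunits and 3 small subunit factors were lower. The authors' deposited table of ischemia DMSO against normoxia DMSO listed 34 members and called 29, of which 23 were higher and 6 lower. Across the 16406 genes whose p-values the authors adjusted, 40.9% were called in either direction, 19.7% higher and 21.2% lower. Over the 82 names, with the 7 genes under older symbols counted, 34 were called (41.5%), 28 higher (34.1%) and 6 lower (7.32%). The share called was close to that of all adjusted genes, while the share higher was above it and the share lower below it. The bases of these shares are unlike. The names are all protein-coding and include 33 in no table, which are not known to have been tested, while the adjusted genes are of any type. Of the 8468 protein-coding genes listed in any table, the closer background for the 42 members, 75.5% were called, 36.3% higher and 39.2% lower. The lower members included Polr2f, Emg1, Nol10, Polr2d and Nol7. Among listed genes, which had to differ, the median log2 fold change in the authors' deposited table was 0.50 for the 34 members and -0.27 for the 7282 protein-coding genes. In all 34 listed members, called or not, the 2 ischemia libraries did not overlap the 2 normoxia libraries, as in 99.8% of the 7694 genes of that table. The list holds strong and marginal calls: in the authors' deposited table the last member inside the threshold was Nol8 with an adjusted p of 0.0408, and the first outside was Polr2b with 0.0529.

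**Figure D1:**
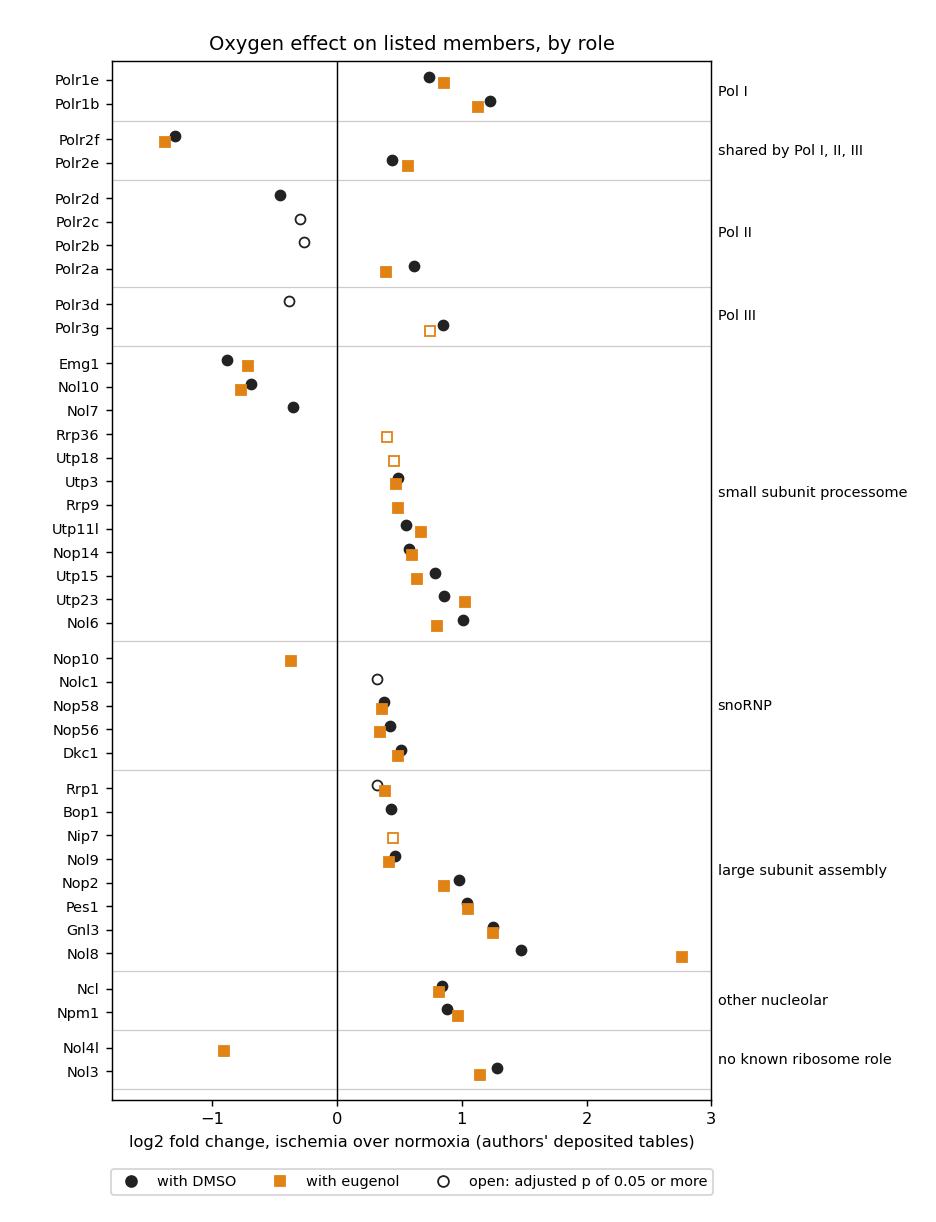
Log2 fold change of ischemia over normoxia (horizontal axis) in the authors' deposited tables for 39 members listed in an oxygen comparison, grouped by role; black circles, with DMSO; orange squares, with eugenol; open symbols, adjusted p of 0.05 or more. Both symbols of a gene lie close together for nearly every member, Nol8 being the widest apart (1.48 and 2.77), and Polr2f lies farthest to the left (-1.30 and -1.37).

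The start regions of members that moved were read from RefSeq (GRCr8), 250 bases before to 50 bases after the gene start, in the direction of the gene. The table holds 36 of the 42 members, and Bop1, Nol3, Polr2c, Polr3d and Utp23 were among those not matched. The letters CACGTG, the E-box that MYC with MAX and other basic helix-loop-helix proteins can bind, read the same on both strands and occurred in 11 of 36 member promoters (30.56%), against 1381 of 19005 protein-coding promoters (7.267%). They occurred in 6 of the 20 matched members that were higher in ischemia with DMSO and in 1 of the 5 matched members that were lower. Shown are 3 higher members, Gnl3, Pes1 and Nol6, which carry the E-box at most 50 bases before the start, and Polr2f, the member with the largest fall, which carries it as well; CACGTG is in capitals. The motif starts 25 bases before the first base of the gene in Gnl3 (chr16:6219733-6220032, minus strand), 50 bases before it in Pes1 (chr14:83074096-83074395, plus strand), 2 bases before it in Nol6 (chr5:61066255-61066554, minus strand) and 31 bases before it in Polr2f (chr7:112592814-112593113, plus strand).
Gnl3: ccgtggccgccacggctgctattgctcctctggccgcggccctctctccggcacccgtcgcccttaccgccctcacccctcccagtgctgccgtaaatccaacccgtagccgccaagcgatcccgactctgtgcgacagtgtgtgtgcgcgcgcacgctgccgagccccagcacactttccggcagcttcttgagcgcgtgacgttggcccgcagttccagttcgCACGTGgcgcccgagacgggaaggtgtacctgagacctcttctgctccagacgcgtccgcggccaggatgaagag
Pes1: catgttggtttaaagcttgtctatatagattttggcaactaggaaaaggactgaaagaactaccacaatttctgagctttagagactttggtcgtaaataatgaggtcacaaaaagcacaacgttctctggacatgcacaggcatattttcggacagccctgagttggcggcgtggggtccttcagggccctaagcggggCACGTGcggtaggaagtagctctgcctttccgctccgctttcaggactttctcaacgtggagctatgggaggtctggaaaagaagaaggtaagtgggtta
Nol6: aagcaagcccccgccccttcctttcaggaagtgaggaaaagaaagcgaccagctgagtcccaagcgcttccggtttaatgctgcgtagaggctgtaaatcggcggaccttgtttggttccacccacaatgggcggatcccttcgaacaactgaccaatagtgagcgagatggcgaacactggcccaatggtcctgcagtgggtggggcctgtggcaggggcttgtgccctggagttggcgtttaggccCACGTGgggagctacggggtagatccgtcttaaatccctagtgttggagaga
Polr2f: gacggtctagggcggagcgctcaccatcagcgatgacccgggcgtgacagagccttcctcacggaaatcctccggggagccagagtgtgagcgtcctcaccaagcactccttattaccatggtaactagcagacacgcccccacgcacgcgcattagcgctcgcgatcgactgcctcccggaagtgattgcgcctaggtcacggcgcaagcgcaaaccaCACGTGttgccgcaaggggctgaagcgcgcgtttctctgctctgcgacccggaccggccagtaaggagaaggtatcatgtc

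Other members with the E-box are Dkc1, Nop2, Polr3g, Rrp1, Rrp7a, Utp18 and Utp20. The letters ACGTG or, on the other strand, CACGT, the core of the hypoxia response element, are contained in every E-box and were in 20 of 36 member promoters (55.56%) against 20.44% of all. CCGGAAG or CTTCCGG, the core of sites for ETS factors, was in 17 of 36 (47.22%) against 11.24% of all, in 7 of the 20 higher members and in each of the 5 lower ones. Member promoters were also richer in G and C, with a median of 60.0% against 55.3% over all protein-coding promoters, and the part of base composition in these shares was not tested. These matches are letters in a fixed window and not measured binding.

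Both members that are subunits particular to RNA polymerase I rose in ischemia, and 2 further such subunits, listed under older symbols, were not called. Polr1b, the second largest subunit, was at 12.8 and 13.1 RPM in normoxia DMSO and at 29.2 and 31.6 RPM in ischemia DMSO. With eugenol it was at 14.2 and 13.0 RPM in normoxia and at 34.3 and 25.4 RPM in ischemia. Every ischemia library stood above every normoxia library. The log2 fold changes in the authors' deposited tables were 1.22 with DMSO (adjusted p 3.89e-09) and 1.13 with eugenol (adjusted p 9.10e-07), and the refit gave standard errors of 0.149 and 0.150. Polr1e, a subunit that takes part in initiation, was at 11.4 and 16.2 RPM in normoxia DMSO and at 21.9 and 24.1 RPM in ischemia DMSO, with 13.6 and 13.0 against 27.9 and 20.6 RPM under eugenol. Its libraries did not overlap between oxygen levels either, and the authors' deposited tables gave 0.73 (adjusted p 0.00456) and 0.86 (adjusted p 0.000513). Rpo1-3, the older symbol of Polr1d, a subunit shared by polymerases I and III that the name rule leaves out, rose from 58.5 ± 2.42 to 82.7 ± 5.31 RPM with DMSO (log2 0.49, adjusted p 0.000586, authors' deposited table). Twistnb, the older symbol of Polr1f, was at 24.1 and 22.7 RPM in normoxia DMSO and at 31.7 and 28.6 RPM in ischemia DMSO and was not called (0.36, adjusted p 0.0946, authors' deposited table). Znrd1, the older symbol of Polr1h, was at 11.6 and 10.9 RPM in normoxia eugenol and at 16.0 and 15.6 RPM in ischemia eugenol and was not called either (0.49, adjusted p 0.0845, authors' deposited table).

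The 2 listed subunits that all 3 polymerases share went opposite ways. Polr2f, the small subunit RPB6, was at 59.9 and 55.7 RPM in normoxia DMSO and at 22.9 and 24.2 RPM in ischemia DMSO. Under eugenol it was at 59.9 and 56.7 RPM in normoxia and at 22.2 and 22.9 RPM in ischemia. The ischemia libraries all lay far below the normoxia ones, and libraries at one oxygen level were nearly alike whatever the treatment. It was the largest fall among members in both oxygen comparisons, with log2 fold changes of -1.30 (adjusted p 7.29e-16) and -1.37 (adjusted p 2.99e-18) in the authors' deposited tables and standard errors of 0.0945 and 0.0953 in the refit. Polr2e, the shared subunit RPB5, was at 90.4 and 76.3 RPM in normoxia DMSO and at 114 and 114 RPM in ischemia DMSO. Eugenol libraries of Polr2e were at 81.3 and 77.3 RPM in normoxia and at 117 and 119 RPM in ischemia, again with no overlap. The authors' deposited tables called it higher in both, at 0.44 (adjusted p 0.00158) and 0.57 (adjusted p 2.38e-06). Per kilobase, Polr2f passed from above Polr2e to below it: the FPKM means in normoxia DMSO were 92.2 ± 4.71 for Polr2f and 77.0 ± 9.23 for Polr2e, and in ischemia DMSO 37.6 ± 1.38 and 105 ± 0.136.

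Among subunits of RNA polymerase II alone, the largest was higher and a small one lower. Polr2a, the catalytic subunit that carries the heptad repeat tail, was at 97.4 and 123 RPM in normoxia DMSO and at 171 and 168 RPM in ischemia DMSO. In the eugenol groups Polr2a was at 134 and 135 RPM in normoxia and at 174 and 181 RPM in ischemia. The normoxia DMSO libraries were the lowest and spread widest, and no ischemia library reached down to a normoxia one. Its rise was called in both oxygen comparisons of the authors' deposited tables, at 0.62 (adjusted p 5.01e-06) and 0.40 (adjusted p 0.000303). Polr2d, which forms with Polr2g a stalk that leaves and rejoins the enzyme in yeast, fell from 26.9 and 26.5 RPM in normoxia DMSO to 20.1 and 19.0 RPM in ischemia DMSO, with no overlap. The authors' deposited table gave -0.45 (adjusted p 0.0390), a call that a refit of that table with DESeq2 size factors did not make (-0.28, adjusted p 0.0853). Polr2b, the second largest subunit (104 and 107 RPM against 89.0 and 87.9), and Polr2c (58.4 and 53.7 RPM against 48.1 and 43.6) were not called, with adjusted p of 0.0529 and 0.0913 in the authors' deposited table. An edgeR refit of that table with the authors' totals called both lower (Polr2b -0.26, adjusted p 0.0273, and Polr2c -0.29, adjusted p 0.0350), and refits with TMM or DESeq2 size factors called neither. Polr2b overlaps Igfbp7 on the opposite strand and the labels do not say that counting used the strand, so their reads may not be separate. 

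Among subunits of RNA polymerase III, one of low level was called higher. Polr3g, one of a pair of alternative subunits and the one known for high expression in stem cells, was at 5.08 and 4.66 RPM in normoxia DMSO and at 8.79 and 8.78 RPM in ischemia DMSO, and the authors' deposited table called it at 0.85 (adjusted p 0.0238). Under eugenol it was at 5.17 and 5.11 RPM in normoxia and at 10.6 and 6.71 RPM in ischemia. These groups did not overlap either, but with the wider ischemia spread the authors' deposited table gave 0.74 with an adjusted p of 0.0753, where the refit gave 0.75 and an adjusted p of 0.0222. Leaving out the second normoxia DMSO library or the first ischemia DMSO library ended the DMSO call in the refit (adjusted p 0.0577 and 0.0506). Polr3d, at 36.0 and 42.4 RPM against 29.0 and 31.3, was not called in the authors' deposited table (-0.38, adjusted p 0.0530). Refits of that table called it lower with the authors' totals (-0.38, adjusted p 0.0236) and with TMM (-0.34, adjusted p 0.0394), and not with DESeq2 size factors (-0.21, adjusted p 0.248).

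**Figure D2:**
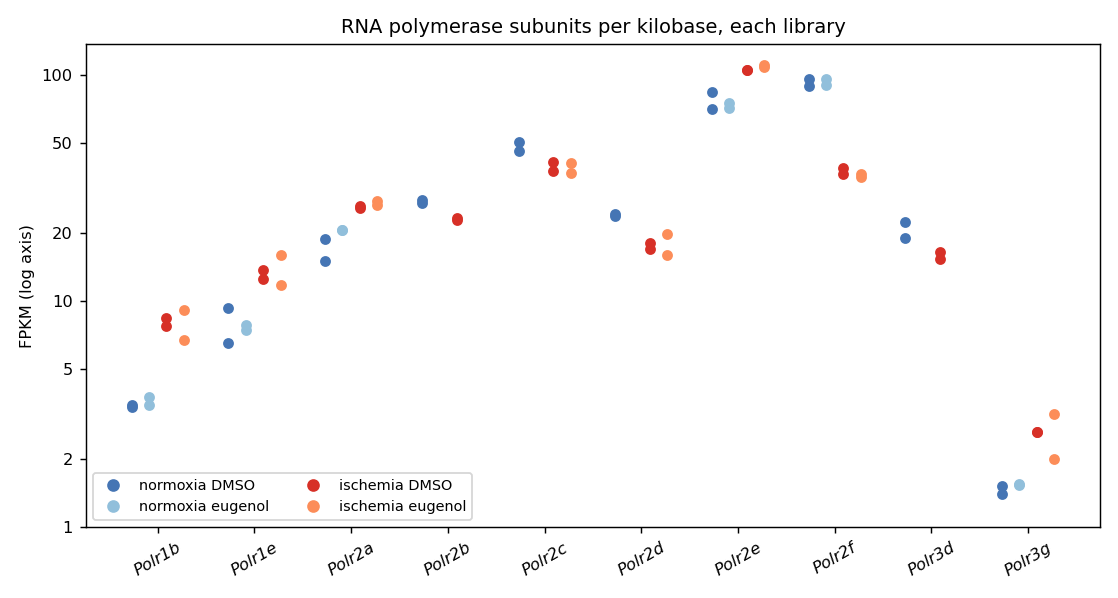
FPKM (log axis) of 10 listed RNA polymerase subunits in each library, with points colored by group; a group without points has no deposited count for that gene. Polr2f drops from 92.2 to 37.6 FPKM between the means of normoxia and ischemia with DMSO while Polr1b climbs from 3.45 to 8.08, and Polr3g is the lowest of the 10 in every group.

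Per kilobase the polymerase subunits covered a wide range in normoxia DMSO, from 1.46 ± 0.0877 FPKM for Polr3g and 3.45 ± 0.0577 for Polr1b to 92.2 ± 4.71 for Polr2f. Polr2a was at 16.9 ± 2.73 FPKM and Polr3d at 20.7 ± 2.38. Polr3d was the higher of the pair in each normoxia DMSO library, and this difference was not tested. In ischemia DMSO, Polr2a at 26.0 ± 0.331 FPKM stood above Polr3d at 15.9 ± 0.874. The members are 2 of the 9 RefSeq genes named Polr1, 6 of 14 named Polr2 and 3 of 10 named Polr3, and unlisted subunits are not described.

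The small subunit processome was the group with most members, 14 genes. With DMSO 9 were listed and all 9 were called, 6 higher and 3 lower, and with eugenol 11 were listed and 9 called, 7 higher and 2 lower. Over all genes, 6713 of the 7694 listed with DMSO were called, 3231 higher and 3482 lower. With eugenol 6578 of the 7526 listed were called, 3134 higher and 3444 lower. Nol6, a structural component of the processome, was at 35.7 and 41.7 RPM in normoxia DMSO and at 77.6 and 78.9 RPM in ischemia DMSO. Under eugenol Nol6 was at 43.0 and 44.0 RPM in normoxia and at 82.0 and 70.4 RPM in ischemia. No ischemia library came near a normoxia one, and the log2 fold changes in the authors' deposited tables were 1.01 (adjusted p 7.93e-12) and 0.81 (adjusted p 4.58e-08), with standard errors of 0.105 and 0.105 in the refit. Utp23, a factor needed for early cuts in the precursor, was low, at 6.59 and 8.08 RPM in normoxia DMSO and 13.4 and 13.2 RPM in ischemia DMSO. With eugenol it was at 5.69 and 7.56 against 14.5 and 12.6 RPM, so all 4 ischemia libraries lay above all 4 normoxia libraries. The authors' deposited tables called it at 0.85 (adjusted p 0.00547) and 1.03 (adjusted p 0.00119). Utp15, part of the t-UTP complex that is also tied to transcription of ribosomal RNA, rose from 24.5 ± 3.22 to 42.5 ± 5.30 RPM with DMSO and from 26.6 ± 0.905 to 41.8 ± 6.10 RPM with eugenol.

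Nop14, Utp11l and Utp3 were called in both oxygen comparisons, with log2 fold changes between 0.47 (Utp3, eugenol) and 0.67 (Utp11l, eugenol) in the authors' deposited tables. Rrp9, a protein of the U3 snoRNP, was listed with eugenol alone (0.49, adjusted p 0.0264, authors' deposited table), at 18.8 and 18.4 RPM in normoxia and 26.5 and 25.7 RPM in ischemia. Utp18 and Rrp36 were listed with eugenol and not called in the authors' deposited table (adjusted p 0.0541 and 0.0990). All 3 edgeR refits of that table, which take only its listed genes, called both higher. Adjusted p in the refit with the authors' totals was 0.0156 for Utp18 and 0.0286 for Rrp36. Utp20 and Rrp7a were listed only for ischemia eugenol against normoxia DMSO, where the authors' deposited table called Utp20 (0.43, adjusted p 0.0447) and not Rrp7a (0.65, adjusted p 0.0687). All 3 refits of that table called Rrp7a too, with an adjusted p of 0.0219 under the authors' totals. Rrp7a overlaps Serhl2 on the opposite strand. Cirh1a, the older symbol of Utp4, another t-UTP protein outside the name rule, rose from 33.9 ± 1.59 to 58.8 ± 3.14 RPM with DMSO (0.79, adjusted p 5.80e-07, authors' deposited table), and Diexf, the older symbol of Utp25, from 22.7 ± 2.97 to 36.7 ± 2.00 RPM (0.69, adjusted p 0.000457, authors' deposited table).

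Against these, 3 factors of small subunit synthesis fell. Emg1, a methyltransferase that modifies 18S ribosomal RNA, was at 29.2 and 32.8 RPM in normoxia DMSO and at 18.9 and 14.9 RPM in ischemia DMSO. With eugenol Emg1 was at 27.0 ± 2.91 RPM in normoxia and at 17.2 and 15.9 RPM in ischemia. All ischemia libraries were below all normoxia libraries, and the authors' deposited tables gave -0.88 (adjusted p 5.31e-05) and -0.71 (adjusted p 0.00118). Emg1 overlaps Lpcat3 on the opposite strand, and reads of the 2 genes may not be separate. Nol10, the homolog of yeast Enp2 in the processome, was at 18.5 and 23.4 RPM in normoxia DMSO and at 13.0 and 13.1 RPM in ischemia DMSO. Its eugenol libraries were at 22.6 and 19.3 RPM in normoxia and at 14.3 and 10.4 RPM in ischemia, with no overlap. The authors' deposited tables gave -0.69 (adjusted p 0.00661) and -0.77 (adjusted p 0.00402), but in the refit with DMSO the call was lost with DESeq2 size factors (-0.45, adjusted p 0.0771) and without the second normoxia DMSO library (-0.50, adjusted p 0.0788). Nol7, a nucleolar protein of the small subunit pathway, went from 72.5 and 67.3 RPM to 50.6 and 59.5 RPM with DMSO (-0.35, adjusted p 0.0332, authors' deposited table), a call not made with DESeq2 size factors (-0.18, adjusted p 0.286).

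Of 5 snoRNP members, Dkc1, Nop56 and Nop58 rose in both oxygen comparisons, Nop10 fell with eugenol and Nolc1 was not called. Dkc1, the pseudouridine synthase dyskerin, was at 85.9 and 88.1 RPM in normoxia DMSO and at 126 and 124 RPM in ischemia DMSO. Eugenol libraries were at 91.7 and 91.3 RPM in normoxia and at 135 and 122 RPM in ischemia. The oxygen levels were clearly apart, and the authors' deposited tables gave 0.52 (adjusted p 2.32e-05) and 0.49 (adjusted p 6.54e-05). Nop56 and Nop58, the paired core proteins of box C/D snoRNPs, were called higher in both comparisons, at 0.43 and 0.35 for Nop56 and at 0.38 and 0.36 for Nop58 in the authors' deposited tables. Nop58 ran from 67.4 to 86.8 RPM within normoxia DMSO alone, against 103 and 97.9 RPM in ischemia DMSO, so the gap between its groups was smaller than the spread within normoxia DMSO. Nop56 and Nop58 host snoRNA genes in their introns, as do Ncl and Gnl3, and in RefSeq Nop56 also overlaps Idh3b and Gnl3 overlaps Pbrm1. Members of other roles overlap protein-coding genes there too: Nol6 (Ube2r2), Nol3 (Hsf4, Matcap1), Nol10 (Atp6v1c2), Polr3g (Mblac2), Rrp9 (Parp3) and Utp18 (Mbtd1). Reads of such overlapping genes may not be separate. Nolc1, a chaperone of snoRNPs that also binds polymerase I, was at 71.2 and 97.7 RPM in normoxia DMSO and 107 and 104 RPM in ischemia DMSO and was not called in the authors' deposited table (0.32, adjusted p 0.0689), while an edgeR refit of that table with DESeq2 size factors called it (0.49, adjusted p 0.0159). Nop10, a small partner of dyskerin, was listed with eugenol alone, at 47.7 and 44.0 RPM in normoxia and 37.8 and 33.6 RPM in ischemia. The authors' deposited table called this fall at -0.37 (adjusted p 0.0422), and refits of that table with TMM or DESeq2 size factors did not (adjusted p 0.0517 and 0.456).

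In large subunit assembly 6 of 7 listed with DMSO and 6 of 7 listed with eugenol were called, all higher. Over all listed genes, 6713 of 7694 were called with DMSO, 3231 of them higher, and 6578 of 7526 with eugenol, 3134 of them higher. Gnl3, also known as nucleostemin, a GTPase needed for precursor processing and linked to proliferation, was at 47.3 and 51.9 RPM in normoxia DMSO and at 126 and 111 RPM in ischemia DMSO. Under eugenol it was at 49.0 and 46.4 RPM in normoxia and at 119 and 109 RPM in ischemia. All 4 ischemia libraries exceeded all 4 normoxia libraries by a wide margin. The log2 fold change in the authors' deposited tables was 1.25 in both comparisons (adjusted p 1.13e-20 and 9.90e-23), with standard errors of 0.0980 and 0.0987 in the refit. Pes1, which with Bop1 and Wdr12 forms the PeBoW complex for maturation of large subunit RNA, was at 50.9 and 55.0 RPM in normoxia DMSO and at 107 and 112 RPM in ischemia DMSO. With eugenol Pes1 was at 54.1 and 49.7 RPM in normoxia and at 114 and 102 RPM in ischemia, with no overlap, and the authors' deposited tables gave 1.04 (adjusted p 6.43e-16) and 1.05 (adjusted p 1.07e-15). Its partner Bop1 was at 32.0 and 38.0 RPM in normoxia DMSO and at 47.9 and 46.8 RPM in ischemia DMSO, a smaller rise in the authors' deposited table (0.43, adjusted p 0.0174). Bop1 overlaps Scx and Mroh1 on the opposite strand.

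Nop2, a methyltransferase of large subunit RNA first known as a proliferation antigen, was at 35.6 and 44.0 RPM in normoxia DMSO and at 77.9 and 79.6 RPM in ischemia DMSO. Under eugenol it was at 43.3 and 41.3 RPM in normoxia and at 83.6 and 70.6 RPM in ischemia. The groups did not overlap, and the authors' deposited tables gave 0.98 (adjusted p 2.02e-10) and 0.86 (adjusted p 7.90e-09). Nol8, a nucleolar protein, had the largest fold changes in the authors' deposited tables, 1.48 (adjusted p 0.0408) and 2.77 (adjusted p 6.05e-07). Its levels were the lowest of any member with counts in every group but ischemia eugenol. It was at 0.483 and 3.11 RPM in normoxia DMSO and at 4.90 and 5.08 RPM in ischemia DMSO, and under eugenol at 0.453 and 1.77 RPM in normoxia and at 8.25 and 6.82 RPM in ischemia. In each normoxia group 1 library stood several times above the other, and the refit did not make the DMSO call (log2 1.48, standard error 0.569, adjusted p 0.0579). Without the first normoxia DMSO library the Nol8 change in the refit was 0.68 (adjusted p 0.364). Nol9, a kinase that acts on precursor RNA ends, was called in both comparisons (0.46 and 0.42), all in the authors' deposited tables. Rrp1 was called there with eugenol (0.38, adjusted p 0.0155) and not with DMSO (0.32, adjusted p 0.0777), while the refit called it with DMSO as well (0.33, adjusted p 0.0249). Nip7, which joins the late nucleolar large subunit precursor, was listed with eugenol alone, at 16.9 and 12.7 RPM in normoxia and 21.1 and 19.5 RPM in ischemia. The authors' deposited table did not call it (0.45, adjusted p 0.0959), and all 3 edgeR refits of that table did (with the authors' totals 0.46, adjusted p 0.0392). Gltscr2, the older symbol of Nop53, outside the name rule, rose from 118 ± 4.77 to 157 ± 3.02 RPM with DMSO (0.40, adjusted p 0.000804, authors' deposited table).

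The 2 abundant nucleolar proteins had the highest levels of all members. Npm1, nucleophosmin, a histone and ribosome chaperone, was at 417 and 413 RPM in normoxia DMSO and at 782 and 750.5 RPM in ischemia DMSO. With eugenol it was at 399.6 and 389 RPM in normoxia and at 775 and 777 RPM in ischemia. Libraries at one oxygen level were tightly grouped and the levels were far apart, with log2 fold changes of 0.88 (adjusted p 3.05e-22) and 0.97 (adjusted p 2.70e-31) in the authors' deposited tables. Ncl, nucleolin, which binds ribosomal RNA and its genes, was at 422 and 427 RPM in normoxia DMSO and at 779 and 748 RPM in ischemia DMSO. Eugenol libraries of Ncl were at 432 and 413 RPM in normoxia and at 761 and 736 RPM in ischemia, again without overlap, and the authors' deposited tables gave 0.84 (adjusted p 1.29e-20) and 0.82 (adjusted p 1.34e-21). How reads of Npm1 were divided from processed copies of the gene is not given.

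The name rule also takes 2 genes with no known part in ribosome synthesis. Nol3, the apoptosis repressor with a caspase recruitment domain that is abundant in heart muscle, rose from 29.3 and 28.8 RPM to 71.2 and 70.8 RPM with DMSO. Under eugenol it was at 33.9 and 34.9 RPM in normoxia and at 77.2 and 75.5 RPM in ischemia, with no overlap, and the authors' deposited tables gave 1.28 (adjusted p 2.87e-18) and 1.14 (adjusted p 3.11e-16). Nol4l, whose role is little known, was listed with eugenol and fell from 11.1 and 11.3 RPM to 5.68 and 6.29 RPM (-0.91, adjusted p 0.00629, authors' deposited table).

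**Figure D3:**
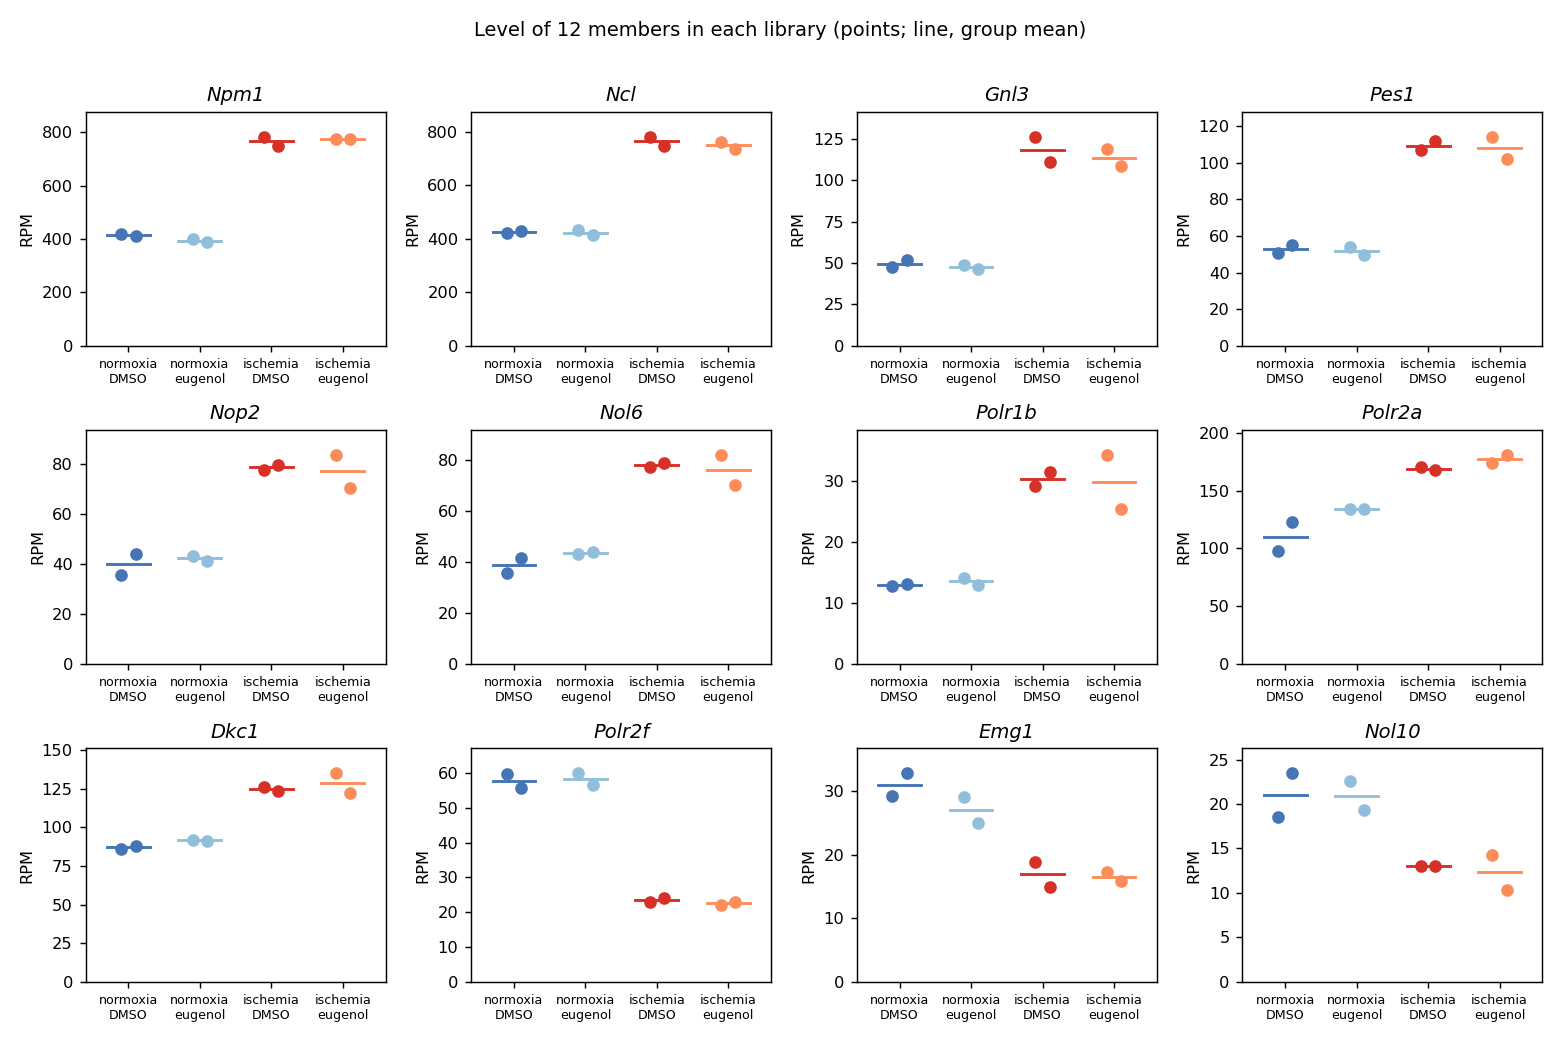
Level in RPM (vertical axis, from 0) of 12 members in each library, with points for libraries and a line for the mean of each group. Npm1, Ncl, Gnl3, Pes1, Nop2, Nol6, Polr1b, Polr2a and Dkc1 stand higher in the 4 ischemia libraries than in the 4 normoxia libraries, and Polr2f, Emg1 and Nol10 stand lower, with no overlap between oxygen levels in any panel.

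Ischemia with eugenol against normoxia with eugenol uses none of the libraries of the DMSO comparison. Here 33 members were listed and 29 called, 23 higher and 6 lower, in the authors' deposited table, where 41.1% of the 16021 adjusted genes were called, 19.6% higher and 21.5% lower. Of the 8468 protein-coding genes listed in any table, 73.8% were called here, 35.2% higher and 38.6% lower. The lower members included Polr2f, Nol4l, Nol10, Emg1 and Nop10. The groups did not overlap in any of the 33 listed members, nor in 99.8% of the 7526 genes of that table. Of the 27 members listed in both oxygen comparisons, 21 were called higher in both, 4 were called lower in both and 0 in opposite directions, while the tables called Polr3g with DMSO and not eugenol, and Rrp1 with eugenol and not DMSO. Polr2f, Emg1 and Nol10 were among the 4 lower in both. How many of all genes listed in both tables were called the same way is not given here. This agreement is therefore not shown to be particular to the members. Ischemia eugenol against normoxia DMSO shares libraries with all the other comparisons, and its authors' deposited table listed 32 members and called 21 higher and 5 lower. There 39.3% of the 16036 adjusted genes were called, 18.5% higher and 20.8% lower, and of the listed protein-coding genes 70.8%, 33.4% higher and 37.5% lower. In all, 34 members were called in at least 1 comparison, and Polr2b, Polr2c, Polr3d, Nolc1, Nip7, Rrp36, Rrp7a and Utp18 in none.

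The size of the oxygen effect did not differ detectably between DMSO and eugenol for any of the 27 members with counts in all 8 libraries. The interaction in the edgeR refit called 0 of them, with 0 at an unadjusted p under 0.05 and a smallest adjusted p of 0.9998, and DESeq2 called 0 as well, with 0 unadjusted. Over the 6582 genes of the refit the interaction called 0.0152%, with 3.59% at an unadjusted p under 0.05. The differences of log2 fold change ran from -0.22 (Polr2a) to 1.29 (Nol8). The 95% interval for Gnl3 was -0.30 to 0.30, for Ncl -0.25 to 0.21 and for Polr2f -0.36 to 0.22. Other members had wider intervals, such as Polr3g (-0.84 to 0.63), Utp23 (-0.43 to 0.78), Polr1e (-0.44 to 0.69) and Nol10 (-0.62 to 0.47). For these, a difference nearly as large as the oxygen effect with DMSO could have been missed. For Nol8 the interval was -0.55 to 3.13, too wide to limit the difference.

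Eugenol itself called no member at either oxygen level. In ischemia 0 members were listed in the authors' deposited table, in which 0.121% of 18972 adjusted genes were called. In normoxia 1 was listed, Polr2a, at 97.4 and 123 RPM with DMSO and 134 and 135 RPM with eugenol. The eugenol libraries lay above the DMSO ones, but the authors' deposited table gave a log2 fold change of 0.28 with an adjusted p of 0.9997, and called 0.181% of 14362 adjusted genes. The edgeR refit of 27 members called 0 in ischemia, with 0 at an unadjusted p under 0.05, and 0 in normoxia, with 2 at an unadjusted p under 0.05, Nol3 and Polr2a. Over the refit's 6582 genes it called 0.0152% in ischemia and 0.0456% in normoxia, with 3.68% and 4.16% at an unadjusted p under 0.05. DESeq2 also called 0 in both, with 0 and 1 at an unadjusted p under 0.05. The median log2 change over the 27 members was -0.02 in ischemia and 0.00 in normoxia. For 26 of the 27 the 95% interval lay within a 2-fold change in either direction at each oxygen level, Nol8 being the exception, and 95% intervals in ischemia were -0.27 to 0.14 for Gnl3, -0.19 to 0.13 for Ncl and -0.28 to 0.15 for Polr2f. These intervals are for single genes, without adjustment for the number of genes tested, and are not limits of detection. In normoxia Polr2a, at 0.29 with an interval of 0.07 to 0.51 in the refit, was not called. With 2 libraries a group, changes inside or beyond these bounds could have been missed.

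**Figure D4:**
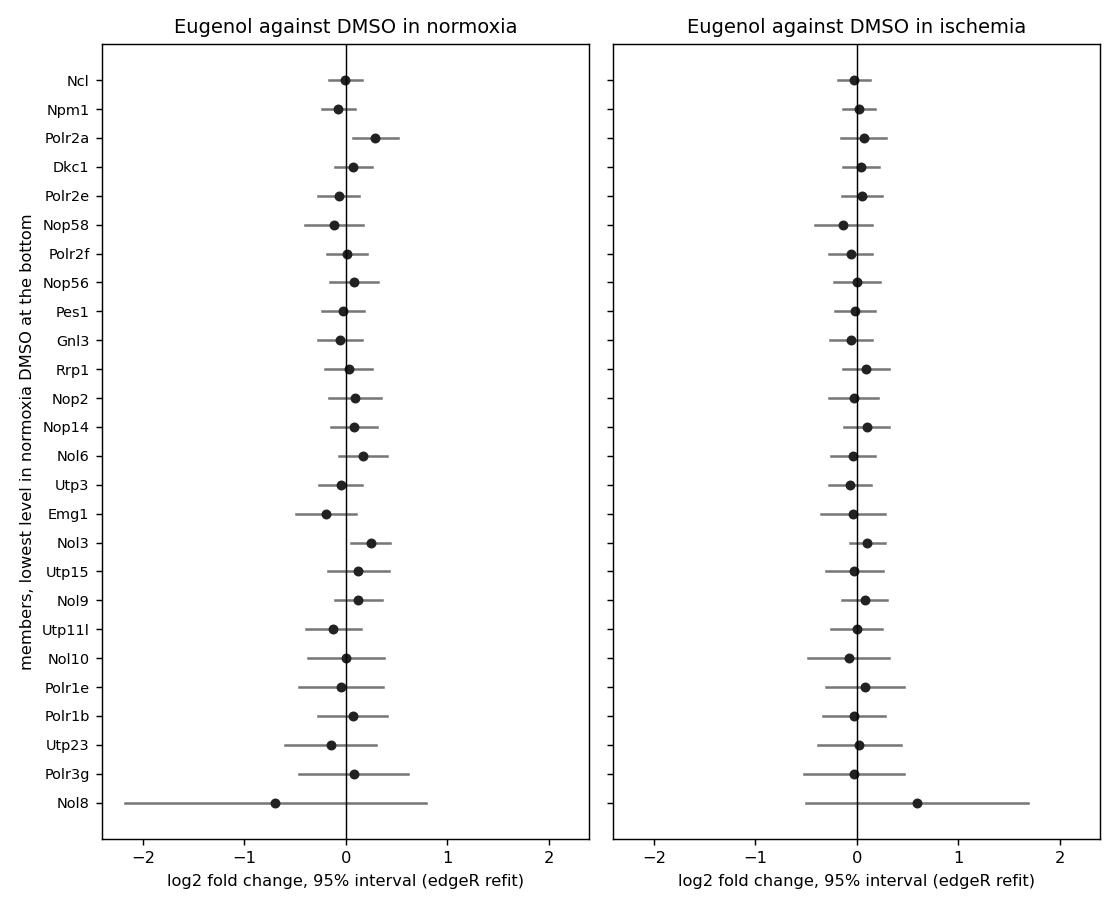
Log2 fold change of eugenol over DMSO with its 95% interval from the edgeR refit (horizontal axis) for 26 of the 27 members with counts in all 8 libraries, in normoxia (left) and ischemia (right), ordered from the lowest level in normoxia DMSO at the bottom to the highest at the top. Points lie around 0 in both panels, and the interval is widest for Nol8, the member with the lowest level.

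The other genes of the pathway were taken as lists by role. Beside their counts, 19.7% of all adjusted genes were called higher and 21.2% lower with DMSO, and 19.6% and 21.5% with eugenol. Of 43 further large subunit factors 36 were listed, with 26 called higher and 3 lower with DMSO and 24 higher and 2 lower with eugenol, in the authors' deposited tables. Sdad1, which acts in export of the large subunit, rose from 17.6 ± 1.00 to 48.6 ± 2.10 RPM with DMSO, and Gnl3l, a relative of Gnl3, fell from 101 ± 9.29 to 71.5 ± 4.70 RPM. Of 34 further small subunit factors 20 were listed, with 16 higher and 1 lower with DMSO and 12 higher and 1 lower with eugenol. Nob1, the nuclease that makes the end of 18S RNA, rose from 46.8 ± 1.20 to 105 ± 2.13 RPM, and the 1 lower gene was Bysl, from 38.6 ± 1.90 to 25.3 ± 0.954 RPM. Of 12 further snoRNP factors 7 were listed, with 6 higher and 1 lower with DMSO and 5 higher and 0 lower with eugenol. Ruvbl2, an ATPase of snoRNP assembly, rose from 43.8 ± 8.46 to 97.1 ± 3.21 RPM. The 1 lower snoRNP gene, Nhp2, was at 38.1 RPM in one normoxia DMSO library and at 0.435 RPM in the other, so its call rests on 1 library. Exosome and trimming genes (16, of which 8 listed) gave 4 higher and 1 lower with DMSO, the lower one being Exosc9, from 43.4 ± 2.08 to 20.4 ± 0.764 RPM.

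Among regulators of the polymerases, the few called genes of polymerases I and III were all higher. Over all adjusted genes 19.7% were called higher and 21.2% lower with DMSO, and 19.6% and 21.5% with eugenol. Of 12 polymerase I regulators 7 were listed, with 4 higher and 0 lower in each oxygen comparison. Tcof1, the treacle protein that recruits the enzyme, rose from 38.0 ± 1.15 to 59.4 ± 4.88 RPM with DMSO. Of 16 polymerase III genes 10 were listed, with 4 higher and 0 lower with DMSO and 5 higher and 0 lower with eugenol. Snapc4, of the complex for small nuclear RNA genes, rose from 16.3 ± 2.93 to 36.4 ± 0.115 RPM. Among 23 polymerase II assembly and general factors 10 were listed, 5 higher and 3 lower with DMSO and 4 higher and 3 lower with eugenol. Rpap2, which takes part in polymerase II assembly and tail dephosphorylation, rose from 12.5 ± 0.486 to 30.5 ± 2.61 RPM, and Gtf2f1, a subunit of the general factor TFIIF, fell from 81.8 ± 7.15 to 49.3 ± 1.13 RPM. In the MYC network, whose proteins bind the E-box, 8 of 12 were listed, with 6 higher and 2 lower with DMSO. Myc itself was at 22.4 and 25.2 RPM in normoxia DMSO and at 143 and 115 RPM in ischemia DMSO. The repressors Mxi1 and Mxd1 of this network rose too, to 175 ± 2.35 and 104 ± 8.17 RPM. The 2 lower genes with DMSO were Mxd4, from 90.6 ± 5.16 to 70.4 ± 2.86 RPM, and Mycn, from 11.9 ± 2.06 to 6.78 ± 1.14 RPM. Of 10 genes of nucleolar stress and p53, 7 were listed, with 4 higher and 1 lower with DMSO, among them Mdm2, which went from 79.7 ± 0.739 to 175 ± 12.2 RPM.

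Outside ischemia DMSO, part of the spread between the 2 libraries of a group was in one direction over the members. Of the 26 members with counts in all libraries and a mean of at least 5 RPM, 21 were higher in the second normoxia DMSO library than in the first, with a median log2 ratio of 0.15, while 49.8% of 5863 genes of that level were. In normoxia eugenol 5 of 26 were higher in the second library, in ischemia DMSO 10 and in ischemia eugenol 6, with median log2 ratios of -0.07, -0.01 and -0.14. Over the 5863 genes the shares were 46.0%, 47.4% and 51.5%, with medians of -0.01, -0.01 and 0.01. The members' median oxygen effect in the refit was 0.62 with DMSO and 0.65 with eugenol, and without the first or the second normoxia DMSO library the DMSO value was 0.51 or 0.79. The median over all 6582 genes was -0.31 and -0.30 with the authors' totals and -0.08 in both with DESeq2 size factors, under which the members' medians were 0.85 and 0.88. The spread between libraries as a share of the mean had a median over members of 8.91% in normoxia DMSO, 3.74% in normoxia eugenol, 2.90% in ischemia DMSO and 7.02% in ischemia eugenol.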

How the data were processed

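RNA of 8 samples was sequenced as total RNA with a TruSeq kit, per the labels. The authors deposited 5 tables, each comparing a pair of groups, which list only genes with an unadjusted p under 0.05. Each gene has a raw count of reads as deposited. Per the submitters' processing notes HISAT2, edgeR, DESeq2 and StringTie 1.3.3b were used, with no role stated for any of them. FPKM, as deposited, divides the count by gene length and by 1 total per library, and that total was used here for RPM. The log2 fold changes are the authors' own estimates, and so are each p-value and adjusted p-value, per the file headers. Column codes were assigned to groups through the tables' titles. The genome build and the strand setting are not given in the sources used here. A further 20 columns of normalized values were not used.

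Main calls used the authors' adjusted p under 0.05, since a refit cannot cover unlisted genes. Genes with counts in all libraries were refitted with edgeR 4.0.16 quasi-likelihood, with Benjamini-Hochberg adjustment over as many genes as the authors adjusted, or over 6582 for the interaction. Other tools were R 4.3.3 with DESeq2 1.42.0 and limma 3.58.1, and Python 3.11.15 with matplotlib 3.10.9, SciPy 1.17.1, pandas 2.3.3 and NumPy 2.4.6, and the fits were tested on simulated data. Alternatives were other scalings, thresholds, tests, filters, replicate blocks and leaving out libraries. The members, the lists and the motifs were chosen with earlier results of these data known. Named members were, per oxygen comparison, the 6 largest rises and falls among called members without overlap, and 15 always named; every other member was named by role, and of each list up to 3 called genes a direction, of which the text prints a selection. For 1 member, included in all counts and medians, no values are reported here.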

Additional observations from a re-analysis of the deposited data

How the results depend on the processing

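No named member reversed its direction in any alternative run. Requiring at least a 2-fold change left 6 higher and 1 lower member with DMSO, 6 and 1 with eugenol, and 4 and 1 for ischemia eugenol against normoxia DMSO. The share of all genes called is not given for this rule or for the alternative refits below. Their counts are therefore not shown to be particular to the members. With DMSO the lower calls were 3 in the edgeR refit with DESeq2 size factors and 3 by DESeq2's Wald test, which also gave 3 with eugenol. In the refit of all genes of a table with DESeq2 size factors, added after seeing the data, ischemia eugenol against normoxia DMSO had 3 lower calls. The refits of genes with counts in all libraries hold 27 members. Refits of all genes of a table, with 34 members for DMSO, 33 for eugenol and 32 for ischemia eugenol against normoxia DMSO, gave 4 to 9, 4 to 6 and 3 to 7 lower calls over 3 scalings, with the most under the authors' totals, and 23 to 25, 27 and 25 higher calls. The members' median rose to 0.85 with DMSO and 0.88 with eugenol under DESeq2 size factors. Leaving out 1 library gave 18 to 23 higher and 3 to 4 lower members with DMSO, 19 to 23 higher and 4 lower with eugenol, and 20 to 22 higher and 4 lower for ischemia eugenol against normoxia DMSO, with medians of 0.51 to 0.79 with DMSO and 0.53 to 0.79 with eugenol. The eugenol contrasts and the interaction stayed at 0 calls. Of 928 pairs of a named member and a setting, 866 kept their side of the threshold, 39 gained a call and 23 lost one, and the cause was not tested.

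Libraries of the same replicate number showed no strong shared difference: the correlation of library differences between groups was -0.235 to 0.12. Whether replicate numbers pair the libraries is not given. With the replicate block the refit called 23 higher and 4 lower members with DMSO, 22 and 4 with eugenol, 22 and 4 for ischemia eugenol against normoxia DMSO, and 0 in the eugenol contrasts and the interaction. Without the block the refit called 98.3% of its 6582 genes with DMSO and 98% with eugenol. Counts of Nol8, the member with the lowest level in normoxia, were 8 and 50 there with DMSO, and 7 and 26 with eugenol.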

Other observations

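Under current symbols 7 more genes of these families were listed with older names, and 5 of them, Polr1d (Rpo1-3), Utp4 (Cirh1a), Utp25 (Diexf), Nop53 (Gltscr2) and Nopchap1 (RGD1563365), were called higher in both oxygen comparisons in the authors' deposited tables. RGD1563365 was at 11.7 and 11.7 RPM in normoxia DMSO and at 22.2 and 17.4 RPM in ischemia DMSO. These genes were chosen after their values were seen.

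Nhp2, the partner of dyskerin in box H/ACA particles, was at 38.1 and 0.435 RPM in normoxia DMSO, 0.711 and 0.477 RPM in normoxia eugenol, 0.451 and 0.753 RPM in ischemia DMSO and 22.6 and 0.419 RPM in ischemia eugenol, so 1 library in each of 2 groups holds nearly all its reads.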
